A study of Mus musculus with 8 samples.

Results

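The genes described here encode complement proteins, clotting factors, the fibrinogen family, kinin precursors and a few other abundant plasma proteins. They were listed by gene symbol, 41 in all, and each was read from the probe set with the highest mean among those naming that gene alone. Of the 41 genes 38 were measured, out of 19934 genes on the array with a single-gene probe set. C3, Klkb1 and Cpb2 were not analysed here. Liver RNA of 4 NS-DADm and 4 WT samples was hybridised to microarrays (Affymetrix Mouse Gene 1.0 ST), whose short probes are spread along the transcript. NS-DADm samples carried mutations of both corepressors NCOR and SMRT in the deacetylase-activating domain, which binds the histone deacetylase HDAC3 and turns on its enzyme activity. WT samples carried neither. The mice of both groups were C57Bl/6 males of 10 to 12 weeks, fed normal chow and kept with 12 h each of light and dark, and liver was collected at ZT10, that is 10 h after lights on. The husbandry note calls the mice of all 8 samples WT, and the genotype label was followed. The labels name no tissue-specific driver for the mutations and do not say whether any sample pooled animals. Separate animals are not stated either, so the p-values given here reflect the variation among these 8 samples alone, and it may be technical.

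Complement is a cascade of plasma proteases and pore proteins that marks and lyses microbes. It starts from C1q bound to antibody, from mannose-binding lectins bound to sugars, or spontaneously, and the routes meet at the cleavage of C3. Coagulation is a second protease cascade, in which vitamin K-dependent factors lead to thrombin, and thrombin turns fibrinogen into a fibrin clot that plasmin later dissolves. Hepatocytes secrete nearly all of these proteins, and several of them are acute phase proteins. C1q is the exception, since macrophages, in liver the Kupffer cells, are its main source.

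Median log2 intensity per array ran from 7.393 to 7.496. Across probe sets, r was 0.993 to 0.998 between NS-DADm arrays and 0.993 to 0.997 between WT arrays. Liver was checked by its markers, and 9 measured hepatocyte markers had mean levels of 12.59 to 13.97, near the highest value in the table, 14.37. Of the 38 plasma protein genes 7 had a mean above 13, and whether differences are compressed at such levels was not tested. Precision is limited by having 4 arrays per group.

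The comparison asks which of these transcripts differ in liver when neither corepressor can activate HDAC3. Fgl1, which encodes a fibrinogen-like protein that hepatocytes secrete, rose 1.74-fold in NS-DADm livers. None of the other 37 genes passed the test. Thus 1 of 38 rose and 0 fell, while over all genes 0.161% rose and 0.110% fell (limma, Benjamini-Hochberg adjusted p under 0.05). Over the 38 genes the log2 fold change had a median of 0.00, with 20 values above 0 and 18 below, against a median of -0.01 over all 19934 genes. The median within-group SD was 0.07 over the 38 genes and 0.10 over all genes, and the shares given next are not matched for it. At an unadjusted p under 0.05 there were 7 genes, 18.4% of the 38, against 9.33% of all genes. Of these, 5 were higher in NS-DADm livers (Fgl1, C4bp, Cfi, Kng2 and Fga), against 3.72% of all genes, and 2 were lower (C6 and Masp2), against 5.60% of all genes. For 35 of the 38 genes the 95% confidence interval of the change lay inside a 1.5-fold difference in either direction, and for 24 it lay inside 1.2-fold. The exceptions to the first bound were Fgl1, C1qb and C1qc. In the plot of fold changes by sub-pathway these intervals are drawn for every gene.

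**Figure D1:**
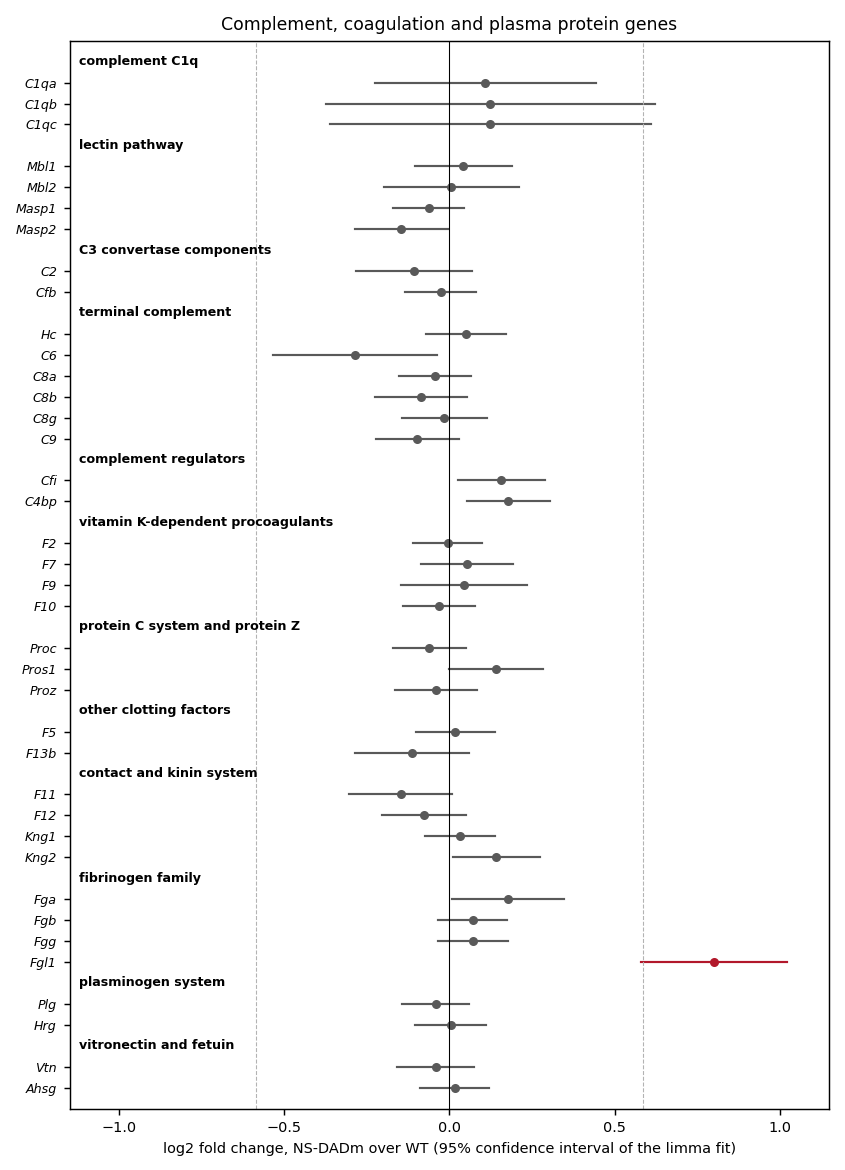
Log2 fold change of NS-DADm over WT livers for the 38 measured genes, by sub-pathway, with 95% confidence intervals from the limma fit on 4 arrays per group and dashed lines at 1.5-fold. Fgl1, in red, at 0.80, is the gene that passed the test, and the C1q genes have wide intervals.

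The fibrinogen family held the changed gene. Fgl1 (Entrez Gene 234199) had log2 intensities of 12.79, 12.71, 12.63 and 12.47 in NS-DADm livers, against 12.13, 11.72, 11.74 and 11.80 in WT livers. The groups did not overlap, and the highest WT array was replicate 1. Fgl1 averaged 12.65 ± 0.14 in NS-DADm and 11.85 ± 0.19 in WT livers (SD, n = 4 each). The log2 difference was 0.80, with SE 0.10 and a 95% confidence interval of 0.58 to 1.02 (limma, adjusted p = 0.0102). It ranked 16 of the 32 genes that rose over the whole array. Its adjusted p lay between 0.00259 and 0.0189 under 8 processing alternatives. Without WT replicate 2 its log2 fold change was 0.76 and its adjusted p 0.0684, and it stayed past the threshold when any other single array was left out. The 9 hepatocyte markers had a mean level of 13.44 to 13.49 in NS-DADm arrays and 13.47 to 13.48 in WT arrays. Of these markers 7 had mean levels above 13, and whether differences are compressed there was not tested. Log2 fold changes were above 0 for 7 markers and below 0 for 2, with Tat lowest at -0.20 (limma, adjusted p = 0.427).

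Fga, Fgb and Fgg encode the Aα, Bβ and γ chains that assemble into fibrinogen. The 3 genes neighbour each other in the genome and are known to be transcribed together in hepatocytes. Fga had 12.18, 12.00, 11.81 and 11.87 in NS-DADm livers, against 11.82, 11.74, 11.77 and 11.82 in WT livers. NS-DADm replicates 1, 2 and 4 stood above all WT arrays, while replicate 3 lay within the WT range, and the log2 fold change of 0.18 did not pass the test (SE 0.077, unadjusted p = 0.0435, adjusted p = 0.512). A second probe set of Fga, at a lower level, differed by 0.31. Without NS-DADm replicate 1 the Fga value was 0.11. Fgb averaged 13.49 ± 0.02 in NS-DADm and 13.42 ± 0.03 in WT livers, and Fgg 13.63 ± 0.03 in NS-DADm and 13.56 ± 0.03 in WT livers (SD, n = 4 each). Both differed by 0.07 (adjusted p = 0.752 each), although the groups did not overlap for either gene. Their confidence intervals ended at 0.18.

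**Figure D2:**
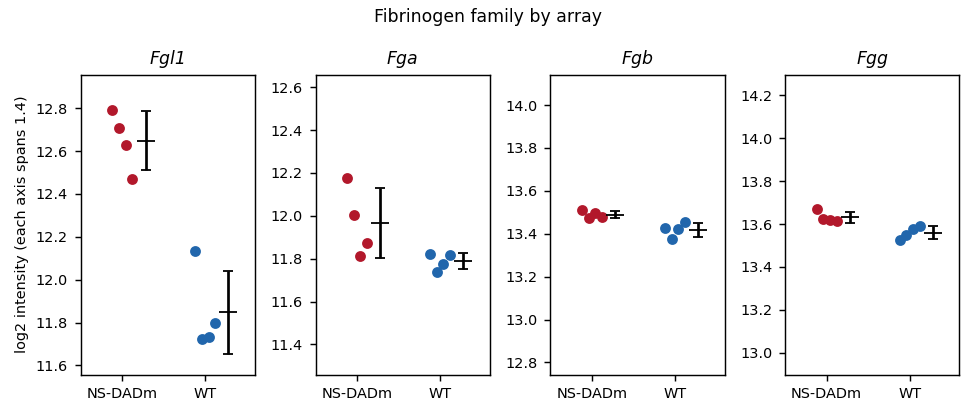
Log2 intensity of Fgl1, Fga, Fgb and Fgg in each array, NS-DADm in red and WT in blue, with the mean and SD of 4 arrays as black bars and axes of equal span. The Fgl1 groups lie 0.80 apart, while those of Fgb and Fgg, at levels above 13, lie 0.07 apart.

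Fgl1 was set against each fibrinogen chain within each array. On that scale Fgl1 minus Fga was 0.62 higher in NS-DADm than in WT livers (SE 0.097). The same difference was 0.73 for Fgb (SE 0.11) and 0.73 for Fgg (SE 0.12). Fga was read here from its brighter probe set, and the second one differed more between genotypes, by 0.31. Fgb and Fgg had mean levels above 13, and whether differences are compressed there was not tested. The 3 values share the Fgl1 arrays, and no test of them is given, since Fgl1 was singled out for its change in the same arrays.

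Fibrinogen promoters are shown here because the 3 chains are liver genes with acute phase elements. C4bp, the other gene shown, had the lowest unadjusted p after Fgl1. The stretches run from 250 bases before to 50 after the gene start in RefSeq, build GRCm38.p6 (Fga, chr3:83025903-83026202, plus strand; Fgb, chr3:83049814-83050113, minus strand; Fgg, chr3:83007474-83007773, plus strand; C4bp, chr1:130661569-130661868, minus strand). Capitals mark the STAT-type motif TTCNNNGAA, bound by the factor that carries interleukin-6 signals, and the motif GTTAAT of the hepatocyte factor HNF1, each searched on both strands.
Fga: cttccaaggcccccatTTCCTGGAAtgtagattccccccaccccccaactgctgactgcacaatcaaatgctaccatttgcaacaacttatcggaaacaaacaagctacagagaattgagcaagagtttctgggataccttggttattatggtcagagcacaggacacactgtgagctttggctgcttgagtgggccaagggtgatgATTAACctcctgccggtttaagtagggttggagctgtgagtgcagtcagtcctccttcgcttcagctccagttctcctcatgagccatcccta
Fgb: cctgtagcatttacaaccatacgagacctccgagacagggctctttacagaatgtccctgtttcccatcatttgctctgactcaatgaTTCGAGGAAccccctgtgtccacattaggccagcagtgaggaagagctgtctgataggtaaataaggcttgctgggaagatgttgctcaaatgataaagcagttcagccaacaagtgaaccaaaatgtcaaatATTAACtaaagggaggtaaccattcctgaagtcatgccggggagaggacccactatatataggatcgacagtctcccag
Fgg: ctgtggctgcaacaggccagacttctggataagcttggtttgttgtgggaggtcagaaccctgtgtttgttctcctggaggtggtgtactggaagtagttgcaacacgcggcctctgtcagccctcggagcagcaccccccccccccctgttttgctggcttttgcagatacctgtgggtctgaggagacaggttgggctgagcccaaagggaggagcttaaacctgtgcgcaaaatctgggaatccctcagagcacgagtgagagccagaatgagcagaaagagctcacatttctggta
C4bp: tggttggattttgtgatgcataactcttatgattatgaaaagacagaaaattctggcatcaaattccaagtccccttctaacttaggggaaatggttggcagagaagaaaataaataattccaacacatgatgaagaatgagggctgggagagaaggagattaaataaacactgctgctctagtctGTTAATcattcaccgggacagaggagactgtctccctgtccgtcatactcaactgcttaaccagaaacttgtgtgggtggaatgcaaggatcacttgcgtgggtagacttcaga

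Fga held a STAT-type match at bases -234 to -226 from the start and Fgb one at -162 to -154. Partial HNF1 sites lay at -43 to -38 in Fga, -29 to -24 in Fgb and -64 to -59 in C4bp. Fgg held neither set of letters in this window. The motifs marked in capitals did not overlap each other. Promoters were found for 29 of the 38 genes, and Fgl1 was not among these 29. A partial HNF1 site was present in 10 of the 29 (34.5%), against 7.1% of all 32851 promoters. A STAT-type match was in 7 (24.1%, against 8.3%). The C/EBP-type motif TTNNGNAA was in 16 of the 29 (55.2%, against 40.7% of all). The NF-kappaB-type motif, GGG and CC with 5 bases of any kind between them, was in 9 (31.0%, against 50.8%). AGTCCA, a partial HNF4-type site, was in 2 (6.9%, against 14.1%). The 29 stretches were a single promoter per gene, whereas the 32851 were all promoters listed. These sets were not matched for base content, and no test of the shares was made. The 7 genes with a STAT-type match were C8a, F9, Fga, Fgb, Masp2, Pros1 and Vtn. Their log2 fold changes ran from -0.15 in Masp2 to 0.18 in Fga. None passed the test for expression, but Fgl1, the gene that did, had no promoter to search. A relation between match and call could therefore not be examined. These matches describe the letters and not binding.

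C1q is built from 3 chains, encoded by the neighbouring genes C1qa, C1qb and C1qc. None passed the test between genotypes, and all varied more among the arrays of each genotype than the other plasma protein genes. C1qb had 9.38, 9.68, 10.04 and 10.48 in NS-DADm livers, against 9.86, 9.69, 9.35 and 10.18 in WT livers. The groups overlapped, with the highest value in NS-DADm replicate 4. Log2 fold changes were 0.11 for C1qa, 0.12 for C1qb and 0.12 for C1qc (adjusted p = 0.936, 0.962 and 0.959). Without NS-DADm replicate 4 they were -0.03, -0.07 and -0.07, and without NS-DADm replicate 1 they were 0.22, 0.30 and 0.29. The within-group SD had a median of 0.40 over the 3 genes and ran from 0.27 to 0.41. Over the other 35 genes its median was 0.06, with 0.19 as the highest value, and over all genes 0.10.

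The C1q genes were high in the arrays where macrophage markers were high. Over the 8 arrays C1qa correlated with the mean of 12 Kupffer cell and macrophage markers at Pearson's r = 0.969 (exact permutation p = 0.000124) and Spearman's rho = 0.976 (p = 0.000397). For C1qb the values were r = 0.978 (exact permutation p = 9.9e-05) and rho = 0.952 (p = 0.00114). For C1qc they were r = 0.984 (exact permutation p = 5e-05) and rho = 0.976 (p = 0.000397). Adjusted over the 3 relations, p was 0.000124 for each r and at most 0.00114 for rho. The 3 relations share the same arrays and marker mean, so they are not independent results. The markers were chosen with earlier results of these data known. Macrophages are also the main source of C1q, so a relation with macrophage markers was likely from the outset. The p-values therefore describe shared variation among these arrays and are no independent support. Leaving out NS-DADm replicates 4 and 1, the arrays farthest from the median of the markers, r was 0.972, 0.963 and 0.984. The marker mean itself ran from 8.66 to 9.56 in NS-DADm arrays and from 8.78 to 9.37 in WT arrays, with 9 of 12 markers above 0 in log2 fold change, a median of 0.05 and none past the test. Other non-hepatocyte markers varied between arrays too. Among NS-DADm arrays 1 to 4 the mean of the sinusoidal endothelial markers was 9.01, 9.27, 9.28 and 9.61, and that of the stellate cell markers 8.79, 8.98, 9.06 and 9.38, so both were lowest and highest in the same arrays as the macrophage markers. Among WT arrays both were highest in replicate 2, with 9.62 and 9.30, whereas the macrophage markers were highest in replicate 4. The part of these other markers in the C1q relation was not tested. In such bulk samples fewer cells of a type and less RNA per cell cannot be told apart. For the other 35 genes r with the same marker mean ran from -0.76 (F11) to 0.76 (Mbl2) with a median of 0.07, as a description.

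**Figure D3:**
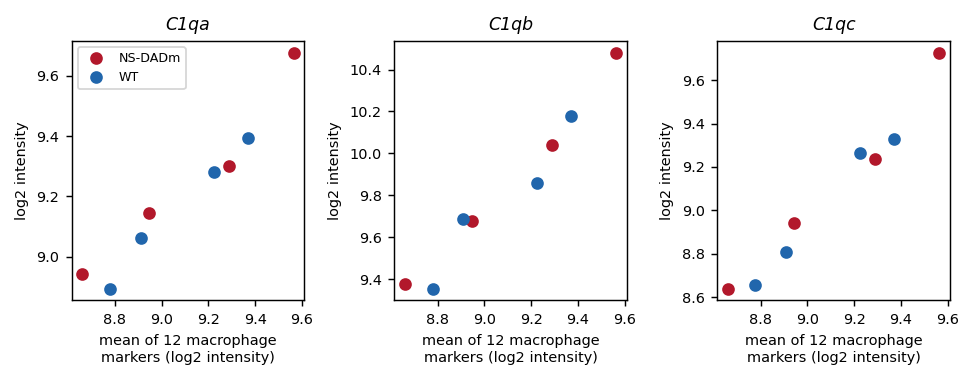
Log2 intensity of C1qa, C1qb and C1qc in each of the 8 arrays against the mean log2 intensity of 12 Kupffer cell and macrophage markers in the same array, NS-DADm in red and WT in blue. Arrays of both genotypes lie along 1 line, with r between 0.969 and 0.984.

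In the lectin pathway Mbl1 and Mbl2 encode the mannose-binding lectins, and Masp1 and Masp2 the proteases that these lectins carry. Masp2, which cleaves C4 and C2, had 11.92, 12.10, 11.96 and 12.15 in NS-DADm livers, against 12.18, 12.23, 12.18 and 12.12 in WT livers. All but NS-DADm replicate 4 lay below every WT array, and the log2 fold change of -0.15 did not pass the test (SE 0.064, unadjusted p = 0.0435, adjusted p = 0.512). Masp1 was at -0.06 (adjusted p = 0.804), with groups that did not overlap, Mbl1 at 0.04 and Mbl2 at 0.01. The median of the 4 genes was -0.03. Mbl1 and Mbl2 are close relatives, as are Kng1 and Kng2, so probes of one may take up signal of the other.

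C2 and Cfb (complement factor B) provide the protease parts of the classical and the alternative C3 convertase. C2 had 10.39, 10.67, 10.48 and 10.74 in NS-DADm livers, against 10.70, 10.75, 10.60 and 10.67 in WT livers. NS-DADm replicates 1 and 3 were the lowest arrays and replicates 2 and 4 lay within the WT range, so the groups overlapped (log2 fold change -0.11, adjusted p = 0.789). Without NS-DADm replicate 1 the value was -0.05, and without replicate 4 it was -0.16. Cfb was at -0.03 (95% confidence interval -0.13 to 0.08).

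Terminal complement proteins build the membrane attack complex after cleavage of C5, which Hc encodes in mice. None of the 6 genes passed the test, and 5 of the 6 had values below 0, with a median of -0.07. C6 had 11.98, 11.82, 11.70 and 11.37 in NS-DADm livers, against 12.08, 12.03, 11.88 and 12.02 in WT livers. NS-DADm replicate 4 was the lowest, and replicate 1 overlapped the WT range. The log2 fold change was -0.29 (SE 0.11, unadjusted p = 0.0282, adjusted p = 0.448), and -0.17 without NS-DADm replicate 4. C9, which polymerises into the pore, was at -0.10, C8b at -0.09, C8a at -0.04, C8g at -0.02 and Hc at 0.05. C8b was lowest in the same array as C6, with 12.78 in NS-DADm replicate 4, while NS-DADm replicates 1 to 3 had 12.99 to 13.01.

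The fluid-phase regulators were both higher in every NS-DADm array than in every WT array, without passing the test. C4bp, which binds C4b and helps to inactivate it, had 12.59, 12.52, 12.45 and 12.39 in NS-DADm livers, against 12.30, 12.32, 12.28 and 12.34 in WT livers. Its log2 fold change was 0.18 (SE 0.056, unadjusted p = 0.00931, adjusted p = 0.322). Cfi, the protease that cleaves C3b and C4b with such cofactors, had 12.57, 12.61, 12.63 and 12.71 in NS-DADm livers, against 12.35, 12.47, 12.52 and 12.55 in WT livers. The log2 fold change of Cfi was 0.16 (SE 0.060, unadjusted p = 0.0244, adjusted p = 0.431). The upper confidence bound was 1.23-fold for C4bp and 1.22-fold for Cfi. Groups did not overlap in 8 of the 38 genes (21.1%), against 5.63% of all genes. The median within-group SD was 0.07 over the 38 genes and 0.10 over all genes. Where the spread is smaller, smaller shifts keep groups apart, and the shares are not matched for it. Of the 8, 6 were higher in NS-DADm livers (Fgl1, Fgb, Fgg, C4bp, Cfi and Kng2) and 2 lower (Masp1 and Plg), against 1.80% and 3.83% of all genes.

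Vitamin K-dependent procoagulants, whose proteins need gamma-carboxylation to bind membranes, stayed close to 0. F2 (prothrombin) was at -0.01, F10 at -0.03, F9 at 0.04 and F7 at 0.05, with adjusted p between 0.915 and 0.995. The largest value was that of F7, which starts the extrinsic route with tissue factor. F7 had 10.57, 10.73, 10.63 and 10.69 in NS-DADm livers, against 10.63, 10.71, 10.49 and 10.59 in WT livers, with overlapping groups. All 4 intervals lay inside 1.2-fold. F7, F10 and Proz are neighbours in the genome and lay at 0.05, -0.03 and -0.04.

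Of the anticoagulant protein C system, Pros1 encodes protein S, the cofactor of protein C. Pros1 had 10.35, 10.19, 10.37 and 10.47 in NS-DADm livers, against 10.16, 10.25, 10.22 and 10.19 in WT livers. NS-DADm arrays other than replicate 2 exceeded every WT array, and the log2 fold change of 0.14 did not pass the test (SE 0.065, adjusted p = 0.543). Proc, the gene of protein C, was at -0.06 and Proz, which encodes protein Z, at -0.04. F5, the cofactor of factor X, was at 0.02. F13b, the carrier subunit of the fibrin cross-linking enzyme, had 11.23, 11.28, 11.45 and 11.26 in NS-DADm livers, against 11.22, 11.46, 11.47 and 11.52 in WT livers. Its lowest array was WT replicate 1, and the log2 fold change was -0.11 (adjusted p = 0.761), or -0.18 without that array.

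Contact factors and kininogens showed values on both sides of 0. F11, a protease of the intrinsic route, had 10.66, 10.58, 10.51 and 10.35 in NS-DADm livers, against 10.61, 10.75, 10.70 and 10.63 in WT livers. NS-DADm replicate 4 was again the lowest, and the log2 fold change was -0.15 (SE 0.071, adjusted p = 0.572), or -0.09 without that array. Kng2, a kininogen gene whose protein yields bradykinin, had 12.77, 12.68, 12.65 and 12.68 in NS-DADm livers, against 12.43, 12.59, 12.54 and 12.64 in WT livers. The Kng2 groups did not overlap, with a log2 fold change of 0.14 that did not pass the test (SE 0.060, unadjusted p = 0.0371, adjusted p = 0.485). Its neighbour and paralog Kng1 was at 0.03 and F12, which starts contact activation, at -0.08.

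The plasminogen system and the remaining plasma proteins had the lowest median within-group SDs of the sub-pathways, 0.024 and 0.036. Plg, the precursor of the clot-dissolving plasmin, had 13.27, 13.27, 13.27 and 13.29 in NS-DADm livers, against 13.34, 13.32, 13.31 and 13.30 in WT livers. The groups did not overlap but differed by -0.04 (adjusted p = 0.903). Hrg, a histidine-rich glycoprotein that binds plasminogen and heparin, was at 0.00. Vtn, which encodes the adhesion protein vitronectin, had 13.49, 13.58, 13.51 and 13.64 in NS-DADm livers, against 13.60, 13.62, 13.60 and 13.57 in WT livers. Its arrays overlapped, with a log2 fold change of -0.04 (adjusted p = 0.922), and Ahsg, the fetuin-A gene, was at 0.02. Levels of all 4 genes were high, at 12.82 to 13.76.

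**Figure D4:**
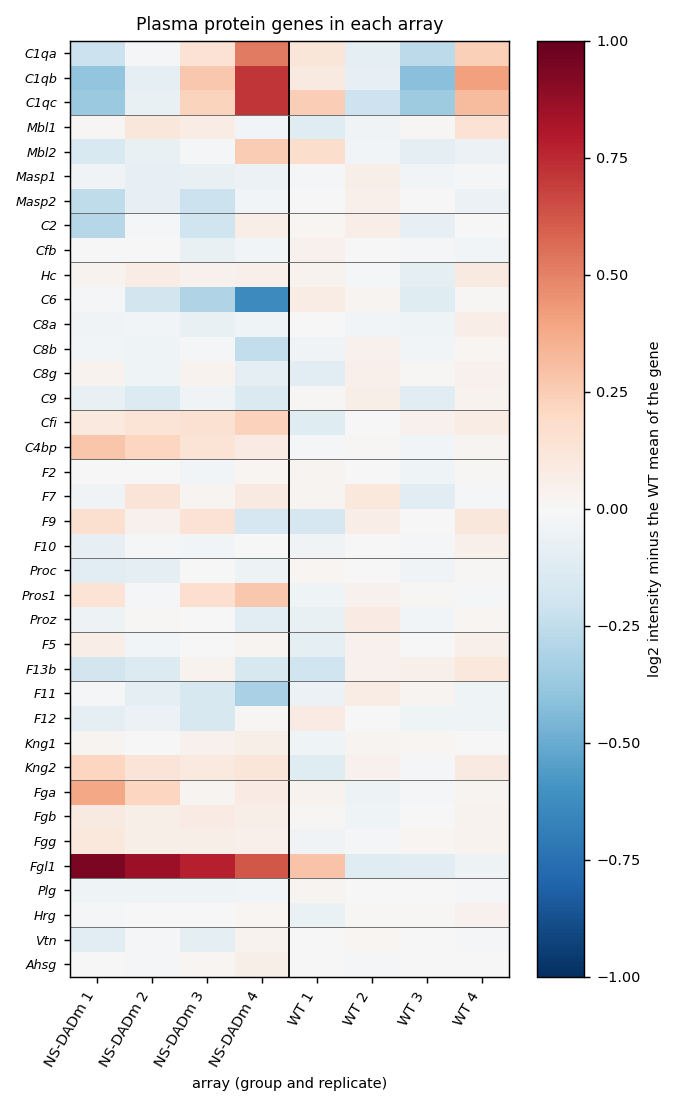
Log2 intensity minus the WT mean of the same gene for the 38 genes (lines down the page, grouped by sub-pathway) in each array, red above and blue below. Fgl1 is red in all 4 NS-DADm arrays, the C1q genes vary within both groups, and C6 and F11 are lowest in NS-DADm replicate 4.

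Set side by side, the 17 complement genes had a median log2 fold change of -0.02 and the 21 others one of 0.02. The sub-pathway medians ran from -0.07 in the C3 convertase components and the terminal proteins to 0.17 in the complement regulators, and that of the fibrinogen family was 0.12. No test was made over these lists, since their members were chosen with earlier results known.

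Of 81 other genes of these pathways that were measured, out of 92 listed, 1 fell and 0 rose, against 0.110% and 0.161% of all genes. That gene was F2r, which encodes a thrombin receptor. F2r had 8.998, 9.17, 9.04 and 9.10 in NS-DADm livers, against 9.74, 9.67, 9.79 and 9.96 in WT livers. The groups did not overlap, and the log2 fold change was -0.71 (SE 0.071, limma adjusted p = 0.00364). Over all 19934 genes 11095 had values below 0. In the same samples all 10 sinusoidal endothelial markers had values below 0, with a median of -0.25, and none of these markers passed the test. Their mean level was 9.01 to 9.61 in NS-DADm arrays and 9.44 to 9.62 in WT arrays, and their part in the F2r result was not tested. At an unadjusted p under 0.05 there were 11 of the 81 genes (13.6%, against 9.33% of all genes).

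In the vitamin K cycle, 0 of 4 genes passed the test. Nqo1, a quinone reductase, was at 7.93 ± 0.15 in NS-DADm and 7.48 ± 0.09 in WT livers (SD, n = 4 each), and the difference of 0.44 missed the threshold (SE 0.079, limma adjusted p = 0.0591). It passed the threshold under 4 processing alternatives, the replicate block among them, and with either NS-DADm replicate 4 or WT replicate 4 left out (adjusted p = 0.0225 to 0.0496). Vkorc1, the vitamin K epoxide reductase, was at -0.14 (adjusted p = 0.472).

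No gene passed the test in the other lists. Among 10 further complement components the largest values were those of Colec10, a collectin gene, at -0.32 (adjusted p = 0.668), and C1s1, a protease of the C1 complex, at -0.24 (adjusted p = 0.239). Colec10 was at -0.13 without NS-DADm replicate 1, nearer to 0 than C1s1. Among 14 regulators and receptors Cd55, a membrane inhibitor of the convertases, was at -0.27 (adjusted p = 0.549) and Itgam, a subunit of a complement receptor, at 0.19 (adjusted p = 0.427). Cd55 was at -0.17 without NS-DADm replicate 1 and also without WT replicate 4. Of 9 fibrinolysis genes Thbs1 (thrombospondin) was at 0.40 (adjusted p = 0.448) and S100a10, a plasminogen-binding protein, at 0.38 (adjusted p = 0.525), both without a call. Leaving out NS-DADm replicate 1 gave 0.24 for Thbs1 and 0.26 for S100a10 (adjusted p = 0.893 for S100a10), while leaving out NS-DADm replicate 4 gave 0.58 for S100a10 (adjusted p = 0.0252). Of 7 kinin receptors and kininases the largest values were 0.08 for Mme and 0.05 for Cpn1. The 20 other secreted plasma proteins, such as albumin, transferrin and hemopexin, had a median of 0.00 and ran from -0.15 in Igfals to 0.13 in Itih3, with every confidence interval inside 1.5-fold.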

How the data were processed

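Each of 4 NS-DADm and 4 WT liver RNAs went on its own array. Total RNA, isolated by Trizol and then a spin column, was turned into biotin-labelled cDNA, per the labels' protocols. The table as deposited by the authors holds log2 intensities of 28270 probe sets, a scale read from the values (3.43 to 14.37), and RMA and Partek are named per the submitters' processing notes, without versions, order or settings. RMA summarises probes and compresses small differences at low intensity. The sources used here give no detection calls, scan dates or slides.

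Probe sets were named from the platform annotation, with symbols updated by Entrez Gene identifier on GRCm38.p6. Of the probe sets 21780 named 1 gene, 1617 several and 4873 were unnamed, which left 19934 genes, each read from its highest-mean single-gene probe set, with no filter on low values. Klkb1 was named only by a probe set that also names another gene. NS-DADm was compared with WT by limma 3.58.1 in R 4.3.3 (lmFit and eBayes, two-sided, Benjamini-Hochberg adjustment over all genes, threshold 0.05). Exact permutation p-values of the C1q relations counted all orders of the arrays, with ranks and adjustment by scipy 1.17.1. Members, lists and tests were chosen with earlier results of these data known. Members past the threshold, those with an unadjusted p under 0.05 and the member with the largest absolute log2 fold change of each sub-pathway are given array by array. Of other lists, genes past the threshold or otherwise the 2 with the largest absolute log2 fold change are named. Alternatives were the mean of probe sets, filters at the median and 25th percentile of level, quantile normalization, array median subtraction, a trended, robust variance prior, weights per array, a block for replicate number, other thresholds and each array left out. The fit was tested on simulated data, where it recovered 78.6% of log2 changes of 0.5. It recovered 99.0% of changes of 1 and 98.2% of changes of -1, and 5.24% of its calls were false. Changes smaller than 0.5 were not simulated.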

Additional observations from a re-analysis of the deposited data

Results flagged for a closer look

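Each of the 38 genes was checked in each genotype for 1 array far from the other 3, in 76 checks, of which 4 stood out. Chance gives about 1 in 20. C8b was lowest in NS-DADm replicate 4 at 12.78, while NS-DADm replicates 1 to 3 had 12.99 to 13.01. Fgg was highest in NS-DADm replicate 1 at 13.67, against 13.61 to 13.62 in the others. Plg was highest in NS-DADm replicate 4 at 13.29, against 13.27 in each of the others. Ahsg was lowest in WT replicate 2 at 13.74, against 13.76 in each of the others.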

How the results depend on the processing

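The count of plasma protein genes past the threshold was 1 under all 8 processing alternatives and at an adjusted p of 0.1, and 7 at an unadjusted p of 0.05. Leaving out each array gave counts of 0 to 1, with 0 without WT replicate 2. The replicate block gave 1 gene and left Fgl1 called, while over all genes it gave 105 calls instead of 54. Array weights gave 109 calls. Leaving out each array gave 13 (without WT replicate 2) to 126 (without NS-DADm replicate 4). Whether arrays of the same number were handled together is not stated. Their deviations from the group means correlated at -0.10 to 0.25. In 3 of 8 arrays the best partner in the other group had the same number. These values do not settle whether the arrays were paired.

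Of the 38 genes 28 kept the sign of their log2 fold change under all 16 refits, and none was newly called. Signs changed, all far from the threshold, under quantile normalization for Mbl2 (-2.813e-05), F5 (-0.016) and Ahsg (-0.0003063), with array weights for Mbl2 (-0.023) and after median subtraction for F2 (0.0034). With each array left out, values ran from -0.028 to 0.22 for C1qa, -0.073 to 0.30 for C1qb, -0.074 to 0.29 for C1qc, -0.078 to 0.065 for Mbl2 and -0.050 to 0.0096 for C8g. They ran from -0.019 to 0.004 for F2, -0.013 to 0.12 for F9, -0.014 to 0.033 for F5 and -0.018 to 0.017 for Hrg. Background correction and a slide block were not run. The cause of these changes was not tested. Signal over background could not be judged from this table.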
